A study of Homo sapiens with 16 samples.

Results

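H3K4me1 was examined after knockdown of the histone demethylase KDM6B in BE2C cells, an adrenergic neuroblastoma line with amplified MYCN. The 4 libraries described here of 16 in all are those that the labels assign to the H3K4me1 antibody and to 1 of the siRNAs. They comprise 2 libraries of cells that received the control siRNA (siCtrl) and 2 of cells that received 1 siRNA against KDM6B (siKDM6B33), all at 72 h and all made by CUT&Tag, in which an antibody directs a transposase to cut and tag DNA at the marked nucleosomes. The other 12 libraries are H3K27me3 from the same siRNA groups, and both marks in BE2C cells treated for 72 h with 0.1% DMSO or with 2.5 µM GSKJ4 (GSK-J4, a KDM6 inhibitor). The study calls the replicates biological, the knockdown rests on a single siRNA, and in a bulk profile a smaller share of marked cells and a weaker mark in each cell cannot be told apart.

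H3K4me1 is a single methyl group on a lysine (K4) of histone H3, placed chiefly by the methyltransferases KMT2C and KMT2D. It is best known from enhancers, the distal elements that raise transcription from a promoter, and it also flanks active promoters, where the nucleosomes nearest the start usually carry trimethylation in its place. KDM6B acts on a different residue: it removes methyl groups from H3K27, which the Polycomb enzymes EZH1 and EZH2 put there.

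In the knockdown libraries called H3K4me1 stood over many more promoters and over less distal sequence than in the controls. Of all protein-coding promoters 30.1% were called in both knockdown libraries and in neither control, and among them were 25 of 31 mitotic genes such as CDK1, KIF20A and BIRC5, 31 of 50 proteasome subunits, 45 of 86 cytosolic ribosomal proteins, 26 of 48 subunits of respiratory complex I and 12 of 22 H3K4 methylation enzymes and cofactors such as ASH2L and RBBP5. Of 17796 distal regions, 3625 (20.4%) were called in both controls only and 1915 (10.8%) in both knockdown libraries only. With the strong narrow peaks described further on, the numbers were 6709 and 6865, so neither direction prevailed there. The genes with the most length of control-only regions near them were SULF2, CAMTA1, GRIK3 and KALRN, which also had regions called in all 4 libraries. Promoters of several adrenergic identity genes of the line, including MYCN, GATA3, DBH and TH, were called in all 4 libraries.

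The authors deposited broad islands (stretches of 200 bp windows with more tags than chance, called separately in each library) and narrow peaks with a summit. A promoter here means 1 kb on each side of any protein-coding transcript start, and it is called in a library when an island overlaps it by at least 1 bp. Of 19812 protein-coding genes, 5240 and 5319 had a called promoter with siCtrl and 11737 and 11725 with siKDM6B33. The knockdown libraries were both higher, by 6452 genes on average (5280 ± 55.9 against 11731 ± 8.49, SD, n = 2 each), a difference far larger than either SD. The exact two-sided permutation test over libraries gave p = 0.333, the smallest value that 2 against 2 allows, so no difference over libraries could pass a threshold of 0.05 here.

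The distal side went the other way. Distal islands, over 5 kb from any protein-coding start, covered 67.4 and 64.2 Mb with siCtrl and 53.5 and 53.6 Mb with siKDM6B33, a difference of -12.3 Mb (65.8 ± 2.23 against 53.5 ± 0.094, n = 2 each, exact permutation p = 0.333). Distal islands numbered 15147 and 15177 in the controls and 12915 and 12993 after knockdown. Islands that touched a promoter covered 29.5 and 28.3 Mb and then 56.5 and 56 Mb, so that the larger total length after knockdown lay at promoters. The median island was of like width in all 4 libraries, at 3600 and 3400 bp in the controls and 3600 bp in both knockdown libraries.

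**Figure D1:**
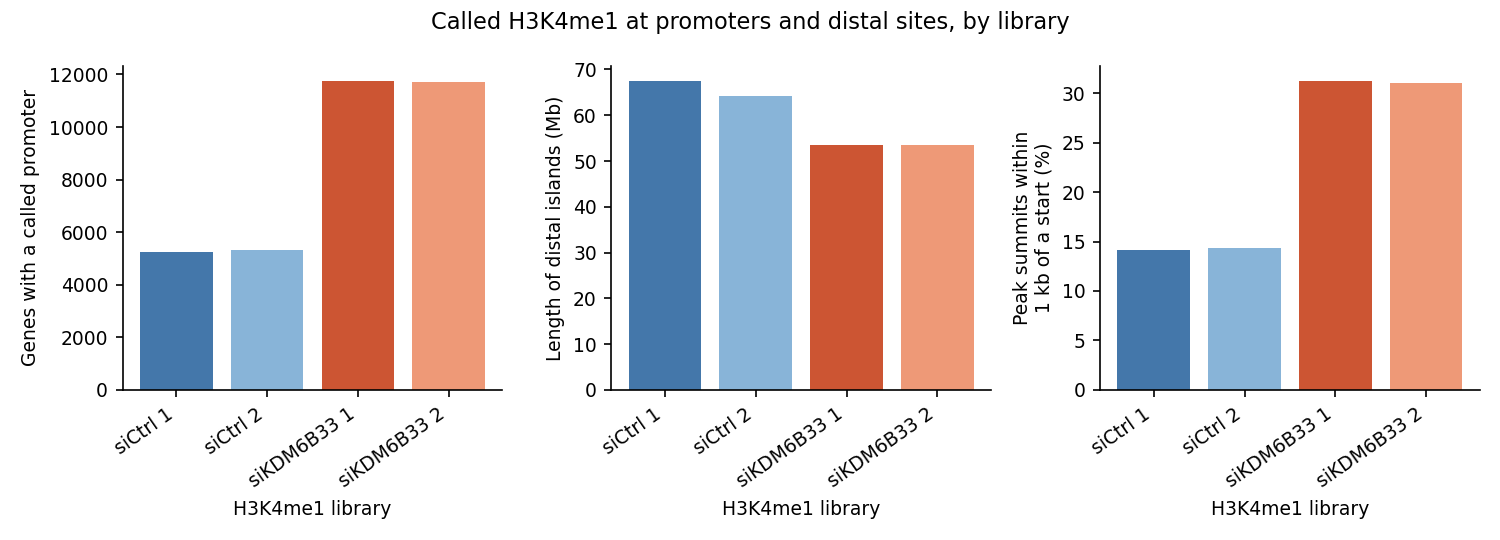
Bars give, for each of the 4 H3K4me1 libraries, the number of protein-coding genes with a called promoter (left), the length of islands over 5 kb from any start in Mb (middle) and the percentage of narrow peak summits within 1 kb of a start (right). The 2 knockdown libraries stand above both controls on the left and right and under both in the middle, and replicates are close to each other in every panel.

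Depth moved with the groups and is given here beside these counts. From the fold enrichment and p-value of each narrow peak, the tags at the summit and the background tags per base can be solved. The background was 0.0902 and 0.0849 tags per base in the controls and 0.107 and 0.105 after knockdown, and the median summit held 6 tags in both controls and 9 in both knockdown libraries. Summits of 3 tags or fewer made up 25% and 25.6% of the control peaks and 5.12% and 5.21% of the knockdown peaks. The knockdown libraries were therefore deeper at their peaks, and the part of this in the calls was not tested with reads. When every library was cut to the same covered length, the highest scores first, 4747 promoters in place of 5956 were called in both knockdown libraries and neither control, and 5217 distal regions in place of 3625 in both controls and neither knockdown library.

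Labels were checked against marker promoters. The adrenergic markers GATA3, DBH, TH, CHGA and MYCN were called in all 4 libraries, HAND2 in both knockdown libraries only, and ISL1 in all but siCtrl replicate 1. Of 5 mesenchymal markers, only SNAI2 was called with siCtrl and PRRX1, FOSL1 and VIM were called in addition after knockdown, while CD44 was called in no library. Among markers of other cells, PTPRC, CD3E and ALB were called in no library, COL1A1 was called in all 4, and EPCAM was called in all but siCtrl replicate 1.

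The targeted gene comes first among single genes. KDM6B (chr17:7737535-7758114, plus strand, hg19) was fully covered at its promoter in all 4 libraries, with a highest narrow peak fold over local background of 9.47 and 7.77 with siCtrl and 10.2 and 12.1 with siKDM6B33. The siRNA acts on the transcript, so a chromatin mark at the promoter does not check the knockdown, and no transcript was measured in these libraries. MYCN (chr2:16080672-16087129, plus strand) was likewise fully covered in all 4, with a fold of 11.2 and 10.5 in the controls and 7.3 and 6.94 after knockdown, the groups not overlapping and the controls higher. Its summits held 362 and 328 tags and then 619 and 617, the locus being amplified in this line. GACAT3, the noncoding gene beside MYCN, was called in all 4 libraries, and CYRIA (formerly FAM49A), on the far side of it, in none, although CYRIA had a narrow peak in both knockdown libraries only, at a fold of 4.96 and 5.84.

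Cell cycle genes that the study followed fell into different classes. AURKB, the mitotic kinase of the chromosomal passenger complex, had no island over its main start under siCtrl, whereas 65.4% of its window was covered in each knockdown library, with a fold of 3.67 and 3.65 and then 7.47 and 5.64. BIRC5 (survivin), of the same complex, had 0% in both controls and 76.7% and 70% after knockdown, with a fold of 4.59 and 6.45 and then 13.7 and 14.2. EZH2, the H3K27 methyltransferase, had 0% in both controls and 100% and 90.9% after knockdown. All 3 were therefore gained, and neither group's values overlapped the other's. CDKN1A, which encodes the cyclin-dependent kinase inhibitor p21, and NAV2 were fully covered in all 4. BUB1, CCNE1 and E2F8 were called in no library by islands, although BUB1 had a narrow peak in both knockdown libraries only, at a fold of 9.64 and 7.6, as did CCNE1, at 5.26 and 5.27.

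Gained promoters are those called in both knockdown libraries and in neither control, lost promoters the reverse, and retained promoters those called in all 4. By these rules 5956 of 19812 promoters were gained (30.1%) and 147 were lost (0.742%), while 4570 (23.1%) were retained and 7529 (38%) were called in no library. Only 282 and 280 promoters were called in a single knockdown library and no other, so the replicates named largely one set. Among 18660 long noncoding RNA genes, 1992 promoters were gained (10.7%), 277 were lost and 2350 were retained. These counts describe the calls and have no test, because the libraries define them.

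Narrow peaks, called by another program from the same reads, gave a graded view. At the gained promoters the median of the highest fold was 3.67 and 3.66 with siCtrl and 9.48 and 9.26 with siKDM6B33. A narrow peak was present in the window at 65.2% and 63.8% of them in the controls, without an island. The median fold of 3.67 in siCtrl replicate 1 stands for a summit of only 3 tags, as at AURKB. Low folds depend on depth, which was lower in the controls, and the part of depth in these folds was not tested. The fold was higher in both knockdown libraries than in both controls at 5541 of the 5956 (93%), beside 55.7% of all promoters. Promoters already called in the controls were higher too: the retained ones had a median of 7.01 and 6.96 in the controls and 10.9 and 10.7 after knockdown, and 3334 of 4570 (73%) did not overlap in that direction. Of those called in no library, 12.5% did.

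The position of the added peaks was close to the start. At 50 bases upstream of the main start, 8.8% and 9.19% of the gained promoters lay inside a narrow peak with siCtrl and 39.2% and 38.8% with siKDM6B33. At 550 bases downstream the values were 1.46% and 1.48% and then 11.4% and 10.6%. About 2 kb away on either side they were under 1% in every library. Retained promoters also peaked there, at 18.2% and 18.6% in the controls and 40.1% and 40.7% after knockdown, but over a broader stretch, with 7.5% and 6.54% and then 14.8% and 14.4% at 550 bases upstream, beside 1.73% and 1.41% and then 8.08% and 7.71% for the gained. Across all peaks, summits within 1 kb of a start made up 16.9 percentage points more of the list after knockdown (14.2 ± 0.194 against 31.1 ± 0.103%, n = 2 each, exact permutation p = 0.333).

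**Figure D2:**
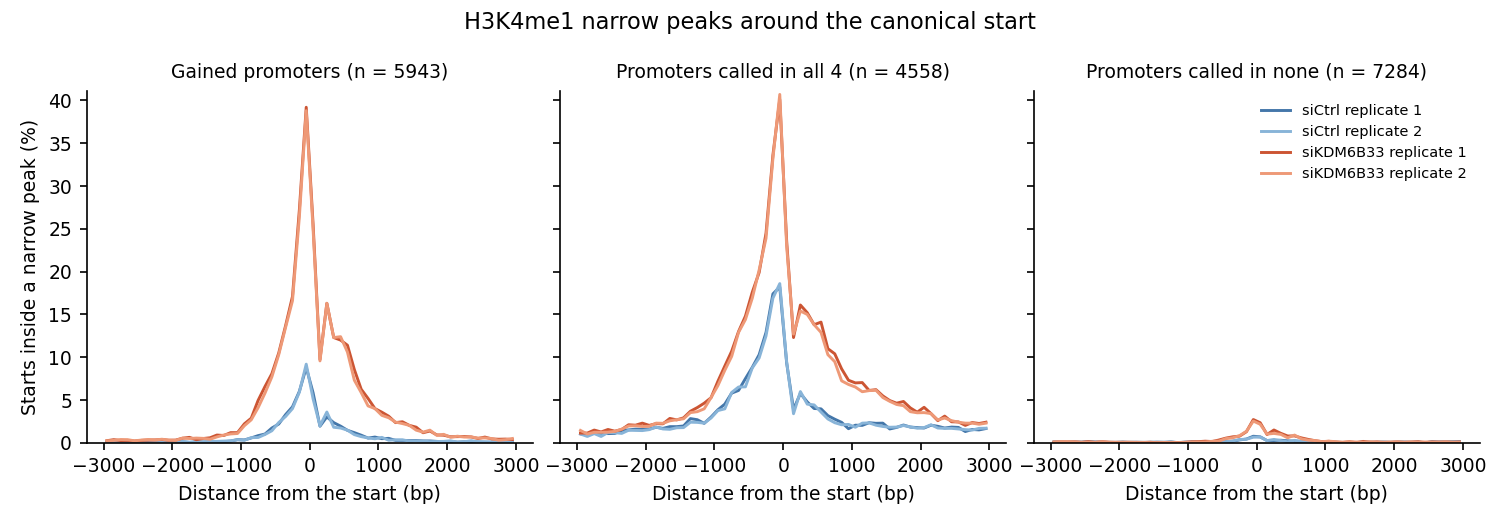
Lines give the percentage of main transcription starts whose position at each distance (bp, downstream positive) lay inside a narrow H3K4me1 peak, for gained promoters (left), promoters called in all 4 libraries (middle) and promoters called in none (right), 1 line per library. Both knockdown libraries peak just upstream of the start, at 39.2% and 38.8% for gained promoters beside 8.8% and 9.19% in the controls, and promoters called in none stay under 3%.

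The strongest gained promoters were read by their fold. UFM1, a ubiquitin-like modifier, had a fold of 7.34 and 5.53 with siCtrl and 35.5 and 32.2 with siKDM6B33. UQCRC2, a core subunit of respiratory complex III, had 10.1 and 9.91 and then 30.6 and 29.5. COQ7, an enzyme of ubiquinone synthesis, had 9.98 and 8.93 and then 30.3 and 26.8. These genes were ranked by the lower of the 2 knockdown values, so their height is a description. CCDC59 and METTL25 share 1 divergent promoter with a fold of 9.17 and 5.53 and then 32.5 and 29.9, and AGPAT1 and RNF5 share another with 5.5 and 10.1 and then 26.9 and 32.2. AGPAT1 was called there through a start other than its main one, whose window was covered 0% in all 4 libraries. The window of RNF5 was 40% covered in both knockdown libraries. The remaining ones were RXYLT1, which acts in glycosylation of dystroglycan, GGH, a folate hydrolase, and TP53TG3D, a member of a family of near-identical copies whose reads cannot be assigned with certainty.

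Most gained promoters were rich in CpG. A promoter was counted as CpG-rich when the 1 kb around its main start had an observed over expected CpG of at least 0.6 and a GC content of at least 50%. Of the gained promoters with a main start, 5325 of 5943 were CpG-rich (89.6%, 95% Wilson interval 88.8 to 90.4), beside 80.5% of the retained, 65.4% of all promoters, 34% of those called in none and 20.3% of the lost. Retained promoters had the higher median GC content (66.8% against 62.7%) and nearly the same observed over expected CpG (0.781 against 0.791). Under a stricter rule 58.2% of the gained were CpG-rich. That rule was not applied to the other classes, so the contrast with them was not checked under it. Put the other way, 41.7% of CpG-rich promoters and 9.15% of CpG-poor promoters were gained. Another gene started within 1 kb in the opposite direction at 33.4% of the gained promoters, 26.2% of the retained and 21.4% of all. The gained genes were also longer, with a median of 38.1 kb against 26.8 kb for the retained and 27.4 kb for all.

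Short sequence motifs were counted from 250 bases before to 50 after the main start, on both strands. The core of ETS factor sites (CCGGAAG) was found in 23.6% of gained promoters, 11.3% of retained ones, 14.1% of all and 0 of 143 lost ones. Within CpG-rich promoters alone the shares were 24.5%, 12.8% and 19%. The GC box (GGGCGG) was found in 73% of gained, 79.6% of retained and 61.8% of all promoters, the CCAAT box (CCAAT) in 37.3% of gained and 36% of all, and the TATA box (TATAAA) in 4.76% of gained and 9.57% of all. Within CpG-rich promoters the GC box was in 76.4% of gained and 80.5% of all, the reverse order, and the TATA box in 3.92% and 4.53%. An E2F site (TTTGGCGC) was in 1.21% of gained and 0.84% of all, the MYC E-box (CACGTG) in 10% and 8.75%, and the CTCF core in 0.471% and 0.476%. No motif searched contains another in these letters, and a match is a description of the sequence.

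Upstream sequences of 4 gained promoters show these features. The 120 bases before the main start are printed on the strand of the gene, 5′ to 3′, from the GRCh37 (hg19) genome, with matches to the ETS core, the CCAAT box and the GC box in capitals on either strand. MRPL51 (chr12:6602429-6602548, minus strand) encodes a mitochondrial ribosomal protein and DDX50 (chr10:70660951-70661070, plus strand) an RNA helicase, and both carry the ETS core. EZH2 (chr7:148581384-148581503, minus strand) and the mitotic kinesin KIF20A (chr5:137514681-137514800, plus strand) carry CCAAT boxes, in 4 and 2 copies.
MRPL51: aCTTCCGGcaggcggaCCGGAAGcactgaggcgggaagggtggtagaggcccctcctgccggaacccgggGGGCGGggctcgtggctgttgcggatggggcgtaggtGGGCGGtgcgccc
DDX50: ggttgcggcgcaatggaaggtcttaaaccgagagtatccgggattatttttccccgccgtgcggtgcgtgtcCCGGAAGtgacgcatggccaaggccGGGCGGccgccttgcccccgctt
EZH2: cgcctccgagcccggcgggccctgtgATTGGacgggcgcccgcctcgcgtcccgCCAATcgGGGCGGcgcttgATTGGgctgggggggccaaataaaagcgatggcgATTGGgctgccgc
KIF20A: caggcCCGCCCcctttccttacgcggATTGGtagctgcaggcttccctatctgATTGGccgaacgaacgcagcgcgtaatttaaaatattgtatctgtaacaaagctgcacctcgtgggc

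Their values were as follows. MRPL51 had a fold of 6.86 and 8.03 with siCtrl and 19.6 and 14 with siKDM6B33. DDX50 had 3.67 and 6.19 and then 11.2 and 10.7. KIF20A had 5.5 and 3.69 and then 17.7 and 28.5. EZH2 had 4.58 and no narrow peak in the controls and then 9.7 and 8.94. In all 4 the knockdown libraries were above both controls.

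Gene groups were then read against the 30.1% of all promoters that were gained. Of 31 lists, 21 had a larger gained share than all genes, and 24 had no lost promoter, where only 0.742% of all promoters were lost. The share over all genes mixes CpG-rich promoters, of which 41.7% were gained, with CpG-poor ones, of which 9.15% were. Genes of mitosis had the largest share, with 25 of 31 gained (80.6%) and 1 retained, MAD2L1. Over the alternative settings the number gained on this list ran from 17 to 27. CDK1, the kinase that drives entry into mitosis, had a fold of 5.44 and 6.33 with siCtrl and 20.8 and 21.3 with siKDM6B33. KIF23, a kinesin of cytokinesis, had no narrow peak and 3.69 and then 14.1 and 15.2. The other gained members included PLK1, AURKA, CCNB1, CCNB2, CDC20, TTK, TOP2A, FOXM1 and MKI67.

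Genes of DNA replication and other E2F targets had 23 of 48 gained (47.9%) and 11 retained, and thus split. CDC45, a component of the replicative helicase, had a fold of 12.4 and 5.34 in the controls and 25.8 and 31.9 after knockdown, and BRCA1, of DNA repair, had 6.33 and 5.53 and then 19.1 and 19.6. MCM2, MCM3, MCM4, MCM7 and PCNA were called in all 4 libraries. With equal covered length 13 of these promoters were gained (27.1%) beside 24% of all, a share close to the background, whereas mitosis had 23 (74.2%). The replication list was 95.8% and the mitosis list 96.8% CpG-rich. Of 25 genes of the CDK4/6, RB and E2F pathway, 11 were gained, among them RB1, CCND2, CCND3, E2F3 and CDKN2C, and 12 were retained, among them CDK4, CDK6, CCND1, E2F1 and CDKN1A.

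Genes of protein synthesis, protein turnover and energy supply had gained shares between 45.7% and 62%, on lists of which 82% to 97.1% were CpG-rich, beside the 41.7% gained among all CpG-rich promoters. Proteasome subunits had 31 of 50 gained (62%), mitochondrial ribosomal proteins 47 of 78 (60.3%), DEAD box helicases 22 of 38 (57.9%), RNA polymerase II subunits 9 of 16 (56.2%), respiratory complex I 26 of 48 (54.2%), cytosolic ribosomal proteins 45 of 86 (52.3%), translation initiation factors 28 of 56 (50%) and ubiquitin-conjugating enzymes 16 of 35 (45.7%). PSMD1, of the proteasome's regulatory particle, had a fold of 8.3 and 7.63 and then 20.5 and 21.9. RPL37, of the large ribosomal subunit, had 6.25 and 7.26 and then 19.2 and 20.5. EIF4E2, a cap-binding protein, had 6.02 and 6.17 and then 18.4 and 18.3. With equal covered length RNA polymerase II had 4 gained (25%), and the other 7 lists had 44.9% to 52.6%.

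Chromatin regulators had gained shares in the same range, on lists of which 86.7% to 100% were CpG-rich, beside the 41.7% gained among all CpG-rich promoters. With equal covered length the H3K4, the H3K27 and the CTCF and cohesin lists had 45.5%, 46.2% and 46.7% gained, beside 24% of all genes. Among H3K4 methylation enzymes and cofactors, 12 of 22 were gained (54.5%), and these included the subunits shared by the KMT2 complexes, WDR5, RBBP5, ASH2L and DPY30. ASH2L had a fold of 7.34 and 7.1 in the controls and 23.7 and 26.9 after knockdown, and RBBP5 had 4.59 and 3.69 and then 13.4 and 19.6. KMT2C was gained, KMT2D was retained, and KMT2A and the demethylase KDM1A were called in no library. Of 13 genes of H3K27 methylation, 7 were gained (53.8%), including EZH1, EZH2, EED and the demethylase KDM6A, and SUZ12 was called in none. RBBP4, a histone-binding subunit of Polycomb and other complexes, had 4.59 and 5.51 and then 23.3 and 24.1. Of 15 CTCF and cohesin genes, 8 were gained (53.3%), including RAD21, NIPBL and STAG2, and CTCF itself was retained. With strong narrow peaks (−log10 q from 5 up) in place of islands, 4 of the 15 CTCF and cohesin genes, 4 of the 13 H3K27 methylation genes, 6 of the 25 CDK4/6, RB and E2F genes, 3 of the 19 adrenergic regulators and 5 of the 23 catecholamine genes were gained, beside 5076 of all 19812.

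Genes of the adrenergic lineage had more retained than gained promoters. Of 19 adrenergic regulators, 11 were retained and 6 were gained (31.6%), including HAND2, INSM1, SOX11 and EYA1. The gain at HAND2 rests on islands alone, since its only narrow peak was in siCtrl replicate 2, at a fold of 4.13. SOX11 overlapped between the groups, with none and 5.61 and then 5.06 and 6.61. EYA1, a transcriptional coactivator, had a fold of 9.24 and 6.19 and then 15.3 and 15. The retained ZNF536 went against the rest at its main start, where the island covered 100% and 74.5% in the controls and 0% in both knockdown libraries, since another of its starts was called throughout. Of 23 genes of catecholamine synthesis and secretory granules, 13 were retained, including DBH, TH, DDC and CHGA, and 8 were gained (34.8%), including MAOA with a fold of 8.26 and 6.43 and then 22.7 and 22.4. With equal covered length 5 of them were gained (21.7%), under the 24% of all genes. Of 25 mesenchymal genes, 10 were gained (40%), including PRRX1, VIM, YAP1 and RUNX1, and 9 were retained. At equal covered length 7 were gained (28%). Among 28 receptor tyrosine kinases, 14 were retained, including ALK and RET, and 6 were gained (21.4%), including NTRK2 with 3.67 and 2.77 and then 14.1 and 14.

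Neuronal and tissue-specific families spanned a wide range. Synaptic adhesion genes had 17 of 35 gained (48.6%), with CNTN5 at a fold of 5.5 and no narrow peak and then 13.4 and 14.1. Glutamate and GABA receptors had 17 of 48 (35.4%), with GRIA2 at 3.67 and 2.77 and then 11.8 and 11.9. HOX genes had 14 of 39 (35.9%), and 28 of the 39 carried an H3K27me3 island in both siCtrl libraries, beside 3165 of all 19812 genes. Zinc finger genes had 211 of 512 (41.2%), replication-dependent histones 20 of 69 (29%), axon guidance genes 22 of 80 (27.5%, a list whose symbols also took in SLITRK genes), solute carriers 97 of 374 (25.9%) and potassium channels 22 of 95 (23.2%). At equal covered length, beside 24% of all genes, synaptic adhesion genes had 12 (34.3%), glutamate and GABA receptors 12 (25%), HOX genes 9 (23.1%), zinc finger genes 141 (27.5%), replication-dependent histones 19 (27.5%), axon guidance genes 18 (22.5%), solute carriers 81 (21.7%) and potassium channels 18 (18.9%). Few promoters were gained among genes of other tissues and in some large clustered families, with 2 of 19 liver genes, 1 of 16 immune genes, 2 of 66 protocadherins, 1 of 391 olfactory receptors and 0 of 55 keratins. Only 0% to 20.3% of the promoters in these last 5 lists are CpG-rich, and the part of CpG content in these shares was not tested.

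**Figure D3:**
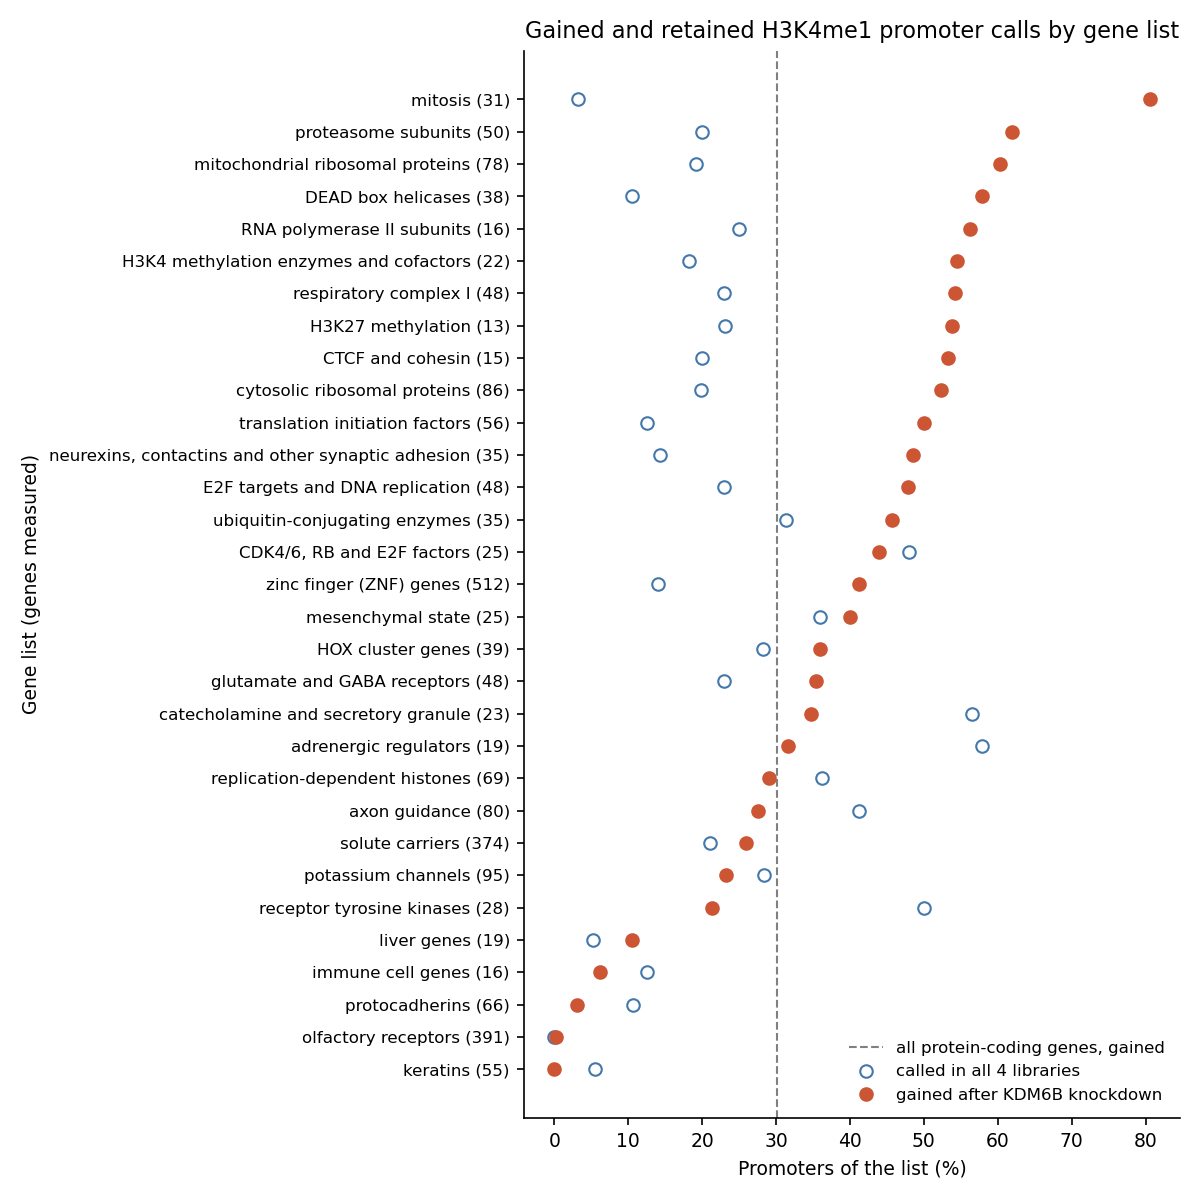
Points give, for each gene list (number of genes measured in brackets), the percentage of promoters gained after knockdown (filled) and called in all 4 libraries (open), and the dashed line marks the 30.1% of all protein-coding promoters that were gained. Mitosis has the largest gained share (80.6%) and keratins, olfactory receptors and protocadherins the smallest, and the CDK4/6, adrenergic, catecholamine and receptor tyrosine kinase lists have more retained than gained promoters.

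Lost promoters were few. GDF15, a stress-induced cytokine, had a fold of 12.5 and 14.7 with siCtrl and 4.52 and 4.37 with siKDM6B33 through a start other than its main one, and APOBEC2 had 9.76 and 9.55 and then 7.23 and 4.49. The other strongest were TAF11L2, from a family of near-identical copies, the unnamed gene ENSG00000257767 and KM-PA-2, whose fold of 10.5 and 13 and then 7 and 10.9 overlapped between the groups. KRT80, a keratin, had its window fully covered in both controls and not at all after knockdown, with a fold of 5.2 and 6.76 and then no narrow peak. Across all lost promoters the median fold was 4.98 and 4.94 with siCtrl, under that of retained promoters in the same libraries, and 0 after knockdown, which stands for no narrow peak. The fold was lower in both knockdown libraries than in both controls at 63 of the 147 (42.9%), beside 2.25% of all promoters. In all lists together 11 promoters were lost.

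For distal sites the islands of the 4 libraries were merged into 17796 regions over 5 kb from any protein-coding start. Of these, 3625 were lost (20.4%), 1915 were gained (10.8%) and 8036 were retained. With strong narrow peaks in place of islands 6709 were lost and 6865 were gained, so the balance toward loss rests on the islands. Of the 12591 called in both siCtrl libraries, 28.8% were thus lost. The lost regions were narrower than the retained ones, with a median of 3200 bp against 5400 bp, and together measured 12.8 Mb against 56.2 Mb. Their islands also ranked lower in the controls, with a median score of 125 and 118 (percentiles 30.9 and 30.5 of all islands) against 339 and 308 at retained regions. They lay a median of 44.4 kb from the nearest start, 53.9% in introns of protein-coding genes and 30% between genes.

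Narrow peaks come from the same reads and describe the same regions on a graded scale. The median of the highest fold in lost regions was 6.7 and 6.58 in the controls and 4.27 in both knockdown libraries, and a narrow peak was present in 92.6% and 93.4% and then in 63.7% and 62.8%. Most lost regions thus still held a narrow peak, at a lower fold. In retained regions the median was 9.76 and 9.55 in the controls and 9.89 and 9.92 after knockdown, close in all 4. The fold was lower in both knockdown libraries than in both controls at 2399 of the 3625 lost regions (66.2%), beside 32.1% of all distal regions and 27.3% of the retained. Over all distal regions 31.4% were higher in both knockdown libraries, so that neither direction prevailed in the narrow peaks, in contrast to promoters, where 2.25% were lower.

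**Figure D4:**
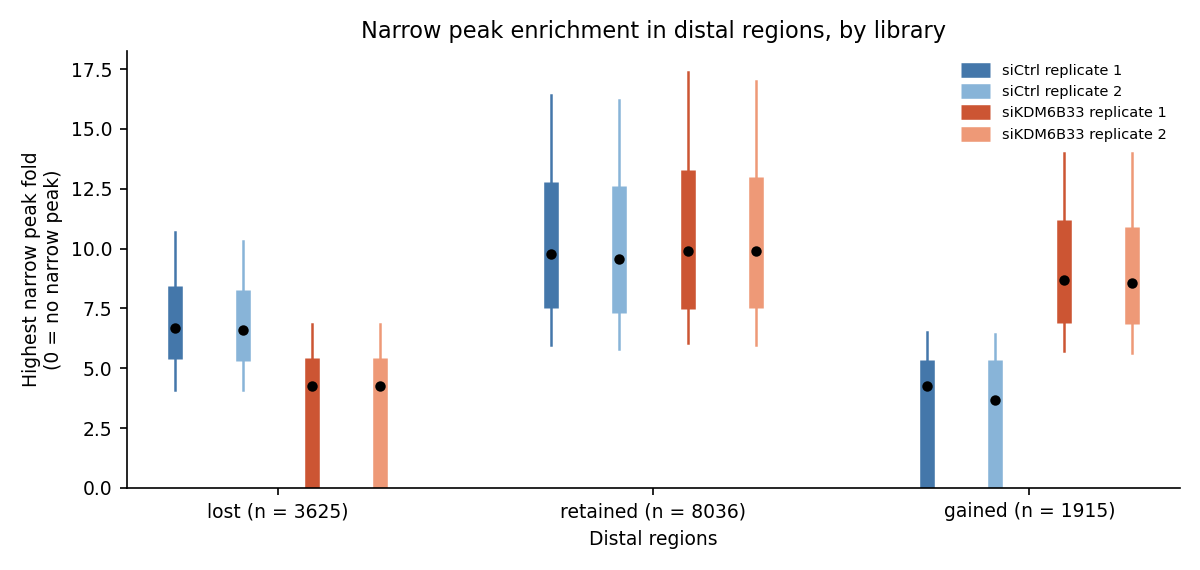
Thick bars give the quartiles, thin lines the 10th and 90th percentiles and points the median of the highest narrow peak fold in lost, retained and gained distal regions, for each of the 4 libraries, with 0 for no narrow peak. Medians in lost regions are 6.7 and 6.58 in the controls and 4.27 after knockdown, while the 4 medians of retained regions lie between 9.55 and 9.92.

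Lost regions spread over 2303 genes when each was given to its nearest start, and 1582 of these genes had a single one. The gene with the most lost length was SULF2 (chr20:46284941-46415360, minus strand), a heparan sulfatase that shapes growth factor signaling, with 14 lost regions of 64.6 kb in all and 13 retained. CAMTA1, a neuronal transcription factor on chromosome 1, had 10 lost (52.4 kb) and 12 retained. GRIK3, a kainate receptor subunit, had 8 lost (43.6 kb), KALRN, a synaptic guanine nucleotide exchange factor, had 9 (43.6 kb), RTL1, a gene derived from a retrotransposon, had 5 (41.6 kb), PTPRU, a receptor phosphatase, had 8 (41 kb), LRFN2, a synaptic adhesion protein, had 11 (40.6 kb), and ZMIZ1 had 8 (38.8 kb). GRM4, a metabotropic glutamate receptor, had 10 lost regions (36.8 kb) and 0 retained, and ASIC2, an acid-sensing channel, had 8 (36 kb). All of these except GRM4 also had retained regions. Of the 63 genes with 5 or more lost regions, 61 had a retained one as well and 44 had a retained promoter.

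The widest lost region measured 19 kb and was intronic, nearest to ITPK1, an inositol phosphate kinase (chr14:93518601-93537600). Its highest fold was 7.98 and 9.49 with siCtrl and 3.31 and 4.31 with siKDM6B33, with no overlap. A region of 13.8 kb 95.5 kb from ADRA2C, an adrenergic receptor gene (chr4:3863601-3877400), had 7.32 and 6.05 and then none and 3.17, and one of 14.6 kb beyond PTPRU (chr1:29768201-29782800) had 6.74 and 5.28 and then 3.29 and none. The groups overlapped in other wide regions although no island was called after knockdown. The intronic 17.8 kb nearest to FMN1, a formin (chr15:33423201-33441000), had 7.56 and 7.61 and then 6.91 and 8.11, the region nearest to ARC 8.18 and 6.06 and then 6.54 and 4.86, that nearest to ZMIZ1 4.59 and 8.12 and then none and 4.93, and that nearest to RTL1 none and 4.28 and then none in either. The regions nearest to LRP8, VWF and CAMTA1 were higher in both controls, at 6.34 and 5.67 and then 4.64 and 5.33 for LRP8, 8.33 and 8.68 and then 7.28 and 6.18 for VWF, and 6.53 and 5.3 and then none and 4.82 for CAMTA1.

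The same lists were read at distal sites against the 28.8% lost among regions called in both controls. Near glutamate and GABA receptors 33 of 84 were lost (39.3%), near solute carriers 82 of 217 (37.8%), near potassium channels 47 of 133 (35.3%), near synaptic adhesion genes 22 of 63 (34.9%) and near axon guidance genes 64 of 223 (28.7%). KCNMA1, a calcium-activated potassium channel, had 5 lost regions (29.8 kb) and 8 retained, and PLXNA4, a semaphorin receptor subunit, had 7 (29.4 kb) and 11. Near adrenergic regulators 17 of 111 were lost (15.3%). Of these, ZNF536 had 5 lost (22.6 kb) and 10 retained, INSM1 had 4 lost and 3 retained, and EYA1 had 3 lost and 7 retained. GATA3 had 1 lost and 9 retained, and ISL1 had 0 and 5. Near genes of catecholamine synthesis and granules 11 of 47 were lost (23.4%), near receptor tyrosine kinases 21 of 87 (24.1%) and near mesenchymal genes 14 of 54 (25.9%), with SOX9 at 5 lost and 17 retained. Lists of other kinds had shares as high, with 8 of 16 near proteasome subunits, 6 of 12 near complex I (50% each), 7 of 18 near CDK4/6, RB and E2F factors (38.9%), 6 of 17 near E2F targets (35.3%), 15 of 43 near mitochondrial ribosomal proteins (34.9%) and 17 of 53 near cytosolic ones (32.1%). Others were lower, with 37 of 157 near zinc finger genes (23.6%), 1 of 10 near H3K27 methylation genes (10%) and 1 of 11 near DEAD box helicases (9.09%). For the mitosis list only 7 such regions existed, of which 1 was lost, next to NEK2.

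Promoter and distal changes were not arranged gene by gene in one way. The gene nearest to a lost region had a retained promoter in 47.1% of cases, a gained one in 22.9%, a lost one in 1.49% and one called in no library in 18.5%. For retained regions the same shares were 50.7%, 23.8%, 0.859% and 14.1%, and for gained regions 30.9%, 36.4%, 0.157% and 21.4%. PAXIP1, a cofactor of KMT2C and KMT2D, had a gained promoter and 4 lost regions, as MRPL3 had with 5 and NTRK3 with 4. The 1915 gained regions were the narrowest, at a median of 2800 bp, had a GC content of 42.9% beside 49.2% in the lost, and lay within 1 kb of a long noncoding RNA start in 18.4% of cases beside 6.04%. Their number was 866 at equal covered length.

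The bases around the strongest summit of each distal region were searched for motifs within 100 bp on both strands, beside windows moved by 2 kb. The CTCF core was found at 37 of 3514 lost regions with a summit (1.05%, 95% Wilson interval 0.765 to 1.45), 91 of 8021 retained (1.13%, 0.925 to 1.39) and 27 of 1904 gained (1.42%, 0.976 to 2.06). The moved windows gave 0.0854%, 0.112% and 0%. The core was therefore rare but concentrated at summits in every class, and the intervals of the 3 classes overlap. The E-box CAGCTG was in 19.8% of lost, 20.1% of retained and 14.2% of gained regions, with 10.1%, 9.79% and 7.41% in the moved windows. The AP-1 site (TGANTCA) was in 9.31%, 9.3% and 6.83%, the GATA site (AGATAA) in 13.3%, 13.1% and 15%, the HAND E-box (CATCTG) in 21.8%, 21% and 15.1%, the MYC E-box in 4.15%, 4.23% and 2.84%, the homeodomain site (TAATTA) in 4.72%, 5.6% and 7.41%, and the E2F site in 0.142%, 0.125% and 0.263%. Lost and retained regions thus differed little in any of these, and smaller shares of the gained ones held the E-boxes CAGCTG or CATCTG. Moved windows gave 5.81%, 5.78% and 6.46% for AP-1, and 10.2%, 11.5% and 13.8% for GATA. For the homeodomain site they gave 5.69%, 6.05% and 9.45%, more than at the summits in every class. The HAND, MYC and E2F sites were above their moved windows in every class.

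Sequences at lost regions are shown for the CTCF core and the E-box CAGCTG, which were both more frequent at summits than in the moved windows. The examples were chosen after their values were seen. For the CTCF core, 36 bases of GRCh37 are printed 5′ to 3′ on the strand of the match with the core in capitals, from intronic regions nearest to CSK, a kinase that restrains SRC (chr15:75092660-75092695, minus strand), ACOX3, a peroxisomal oxidase (chr4:8405058-8405093, minus strand), and LINGO1, a neuronal receptor (chr15:77952225-77952260, plus strand). For the E-box, which reads the same on both strands, 30 bases of the plus strand are printed with CAGCTG in capitals, from regions nearest to CAMTA1 (chr1:7586559-7586588), GRIK3 (chr1:37376033-37376062), GRM4 (chr6:34037261-34037290) and ASIC2 (chr17:32303350-32303379).
CSK: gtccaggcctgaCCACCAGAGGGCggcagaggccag
ACOX3: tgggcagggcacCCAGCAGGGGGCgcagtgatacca
LINGO1: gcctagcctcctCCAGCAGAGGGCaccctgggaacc
CAMTA1: gcacacagaccaCAGCTGtgagctggcctc
GRIK3: cgcagctcagtgCAGCTGtgggctggaaga
GRM4: ctgggctggctcCAGCTGgatctgggactg
ASIC2: atatagtgagtcCAGCTGtacactcaggga

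At these sites the region near CSK had a fold of 19.5 and 14.1 with siCtrl and 6.56 and 5.77 with siKDM6B33. The one near ACOX3 had 15.4 and 13.9 and then 6.78 and 8.76, and the one near LINGO1 had 8.84 and 11.5 and then no narrow peak. At the E-boxes, CAMTA1 had 4.66 and 5.27, GRIK3 5.17 and 7.51 and ASIC2 6.47 and 8.37 with siCtrl, and none of the 3 had a narrow peak after knockdown. GRM4 had 6.69 and 6.71 and then 3.23 and none. The controls were above both knockdown libraries at all 7, which were picked with these values known, beside 2399 of all 3625 lost regions (66.2%).

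Libraries that played no part in choosing these sets were then looked up. Gained promoters were called in 11.2% and 8.7% of cases with DMSO and in 8.01% and 8.68% with GSKJ4, so that GSKJ4 was lower by 1.63 percentage points (9.97 ± 1.8 against 8.34 ± 0.475, n = 2 each, exact permutation p = 0.333). All promoters were called in 25.3% and 23.1% and then in 20% and 20.9%. All promoters include those called in siCtrl, which the gained ones exclude by their definition. Promoters called in no knockdown or siCtrl library were called in 1.57 ± 1% with DMSO and 1.47 ± 0.131% with GSKJ4, under the gained ones in every library. Retained promoters were called in 80.3 ± 2% with DMSO and 67.4 ± 1.24% with GSKJ4.

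Lost distal regions were called in 46% and 41.4% with DMSO and in 49.4% and 49.6% with GSKJ4, a difference of 5.78 percentage points (43.7 ± 3.24 against 49.5 ± 0.137, n = 2 each, exact permutation p = 0.333). For regions lost at equal covered length the groups overlapped, at 58.1% and 52.7% with DMSO and 57.8% and 58.4% with GSKJ4. Retained distal regions were called in 87 ± 1.77% and 83 ± 0.722%. The compound libraries were shallower, with a background of 0.0483 to 0.0569 tags per base and a median summit of 4 or 5 tags, and the part of depth in these shares was not tested. H3K27me3 islands lay at 18.5% of gained promoters in both siCtrl libraries and at 18.2% and 18% after knockdown, beside 17.2% and 17.1% and then 18.6% and 18.4% of all promoters. At lost distal regions H3K27me3 was called in 1.41% and 1.3% in the controls and 1.35% and 1.21% after knockdown, with the groups overlapping (exact permutation p = 0.667), and at gained distal regions in 15.4% and 15.9% and then 16.9% and 16.6%.

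**Figure D5:**
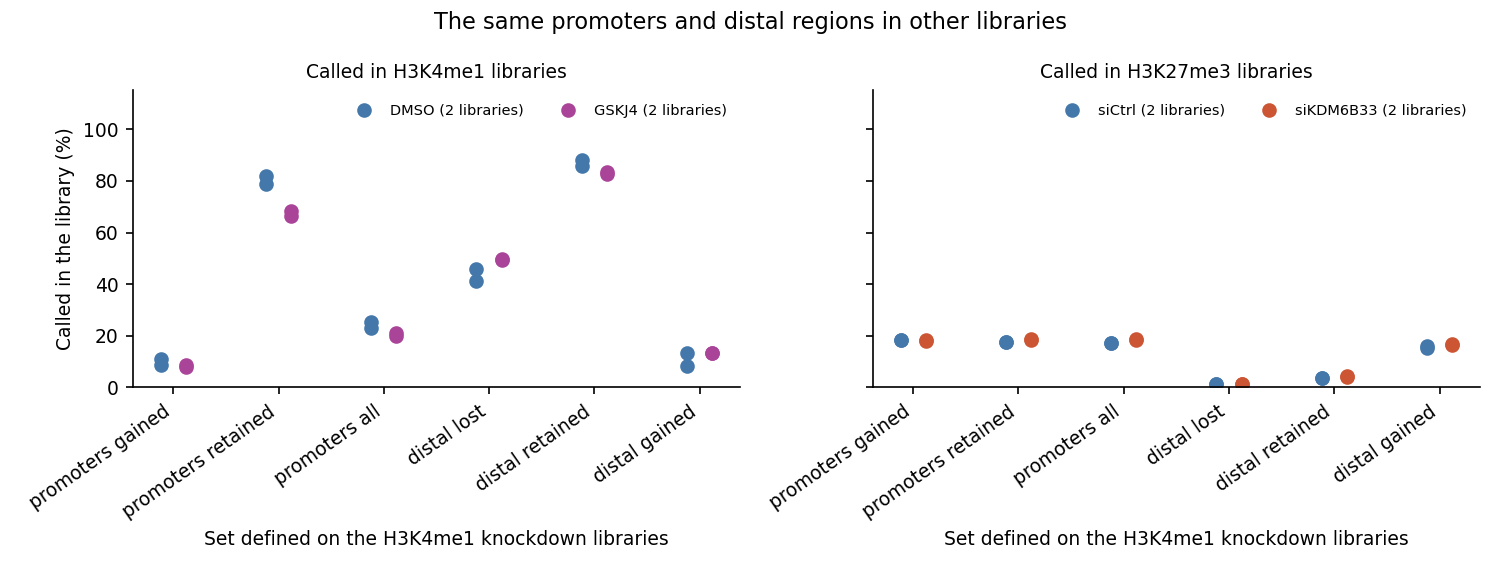
Points give the percentage of each set, defined on the 4 H3K4me1 knockdown libraries, that was called in each H3K4me1 library with DMSO or GSKJ4 (left) and in each H3K27me3 library with siCtrl or siKDM6B33 (right). Gained promoters lie at 8.01% to 11.2% in the compound libraries and lost distal regions at 41.4% to 49.6%, and H3K27me3 covers under 2% of lost distal regions in every library.

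By chromosome, gained promoters ranged among the autosomes from 22.7% of genes on chromosome 19 to 39.5% on chromosome 15, and they were 14.5% on the X chromosome. The gain was thus spread over the genome, and no autosome was without it.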

How the data were processed

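Per the labels, the authors trimmed reads with Trim Galore 0.4.4, aligned them to hg19 with BWA 0.7.12, removed duplicates with Picard 1.65 and used SAMtools 1.3.1 and bedtools 2.25.0. The labels name MACS2 2.1.1 for the narrow peaks. Per the study's methods, fragments of 150 to 2000 bp were kept and SICER 1.1 called islands (window 200 bp, gap 600 bp, genome share 0.86), in each library separately. The deposited island lists give a score, and the deposited narrow peaks give a fold (ratio) over background and −log10 p and q. The study's spike-in scaling and its test on reads were not possible with region lists, so levels between libraries rest on calls at each library's own depth.

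Genes and starts came from GENCODE 44 lifted to GRCh37. Scripts used Python 3.11.15, NumPy 2.4.6, pandas 2.3.3, SciPy 1.17.1, pysam 0.24.0 and matplotlib 3.10.9, and overlap counting was tested on simulated islands. An exact permutation test compared the library values. Merged regions went to the nearest protein-coding start. Percentages of a window covered and sequences refer to the main (canonical) start, calls to any start. Fold is (summit tags + 1) over (background + 1), so low-count folds depend on depth. Intervals cover counting error only. Named genes were the study's own, the 10 strongest gained and 5 strongest lost promoters, up to 3 gained members per list, and the genes and regions with the most lost distal length. The members, the 31 lists and the rules were chosen with earlier results of these data known. Replicate numbers did not pair the samples. PECAM1, asked for as a marker, did not match a symbol. Some genes of the lists are not reported here by name.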

Additional observations from a re-analysis of the deposited data

Results flagged for a closer look

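The same 3 measures were compared between the knockdown and the inhibitor, because both libraries of each treated group moved away from both of their controls and in opposite directions. Protein-coding genes with a called H3K4me1 promoter differed by 6452 for siKDM6B33 minus siCtrl and by -746 for GSKJ4 minus DMSO. The length of distal islands differed by -12.3 Mb after knockdown and by 3.96 Mb with GSKJ4. For the inhibitor this difference was smaller than the gap between its own controls. DMSO replicate 1 had 48.9 Mb of distal islands, close to GSKJ4 replicates 1 (50.1) and 2 (50.3), whereas DMSO replicate 2 had only 43.6 Mb. The share of narrow peak summits within 1 kb of a start differed by 16.9 percentage points after knockdown and by -3.39 with GSKJ4. The difference between the experiments was not tested, since the experiments were each compared with their own controls and differ in depth.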

How the results depend on the processing

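The direction of the main differences held under every alternative run: 6452 more genes with a called promoter (5182 to 6696), -12.3 Mb of distal islands (-21.6 to -8.81) and 16.9 points more summits within 1 kb (12.3 to 21.1). The distal length was not rerun with narrow peaks. At equal covered length, more length at promoters leaves less for distal islands, so that setting is no separate check of the distal side. Leaving out 1 library at a time gave 6412 to 6491 genes, -13.8 to -10.7 Mb and 16.8 to 17 points, 6236 to 6427 gained and 179 to 191 lost promoters, 4118 to 4707 lost and 2158 to 2487 gained distal regions, and 89.1% to 89.6% CpG-rich. With equal covered length, 244 promoters were lost and 866 distal regions gained, with 1226 gained at an equal number of islands. Shared by both settings were 4603 gained promoters (77.3% of 5956, 97% of 4747) and 3241 lost distal regions (89.4% of 3625, 62.1% of 5217). With narrow peaks (−log10 q from 5 up) in place of islands there were 80 lost promoters, 6709 lost and 6865 gained distal regions, so there the distal balance was even, and the cause was not tested. A stricter CpG rule gave 58.2% of gained promoters. A 250 bp window gave the CTCF core at 1.42% of lost, 1.63% of retained and 1.84% of gained regions. At equal covered length, gained promoters were called in 12.1% and 9.82% with DMSO, and lost distal regions in 58.1% and 52.7% with DMSO and 57.8% and 58.4% with GSKJ4. Without 1 library these ran, for gained promoters, from 11.1% to 12.5% and 8.5% to 9.88% in the DMSO replicates and from 7.81% to 8.76% and 8.53% to 9.54% with GSKJ4, and for lost distal regions from 40.3% to 48.8%, 35.6% to 43.8%, 44.8% to 51.2% and 45.3% to 51.9%.

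The replicate numbers share only a number (correlation of replicate deviations between the groups 0.0088 over 19529 genes). With the replicate number as a block the differences were 6452 genes, -12.3 Mb and 16.9 points, each with an exact sign-flip p of 0.5, the smallest that 2 pairs allow. Depth is known only from the peaks, and a missing call does not show that the mark is absent.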
